A study of Mus musculus with 12 samples.

Results

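The laminin chains are the subunits of laminins, the large cross-shaped glycoproteins of basement membranes. All 9 chains considered here, Lama2, Lama3, Lama4, Lama5, Lamb1, Lamb2, Lamb3, Lamc1 and Lamc3, were taken by symbol, whatever their values, and all 9 were found among the 31053 genes counted in each library. The study counted RNA in nuclei of frozen mouse lung, with 3 mice in each of 4 groups and 1 library from each mouse, to ask how an inhibitor of the receptor tyrosine kinase EphB4 alters lungs injured with bleomycin. All 12 mice were wild-type C57BL/6J animals, instilled through the trachea at 7 weeks of age, gavaged once daily for 5 days from day 5, and killed on day 14. PBS_Vehicle mice received PBS and then vehicle, PBS_NVP-BHG712 mice received PBS and then the inhibitor NVP-BHG712, Bleo_Vehicle mice received bleomycin and then vehicle, and Bleo_NVP-BHG712 mice received bleomycin and then NVP-BHG712. Bleomycin is a DNA-damaging drug whose instillation gives an acute epithelial injury followed by scarring, and nuclei were sorted on DAPI alone, so each library held whatever cell types released intact nuclei.

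Each laminin is a trimer of an alpha, a beta and a gamma chain. The alpha chain carries the domains that integrins and dystroglycan bind, and thereby decides which receptor a laminin engages. In lung, trimers with alpha2 or alpha4 belong to mesenchyme and vessel walls, alpha5 trimers to the basement membranes under epithelium and endothelium, and alpha3 trimers with beta3 to epithelial anchorage, while beta1 and gamma1 are the partners shared by most of them. Gamma3 is a less common chain that can replace gamma1.

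The 12 libraries gave 44611 nuclei after filtering, 1168 to 11867 per library, with 3521537 to 46457084 unique molecular identifiers (UMIs, counted transcript molecules) in each. Clusters of nuclei were named from marker genes into 18 classes, written here as "X-like", and 3548 nuclei kept no name. The Bleo_Vehicle libraries stood apart in a technical measure: their median mitochondrial share of UMIs was 0.668% to 2.56%, and it was at most 0.0496% in the other 9. The labels also place all Bleo_NVP-BHG712 libraries in run 4 and the Bleo_Vehicle libraries in batches 6, 6 and 7, numbers that no PBS library carried, so for every comparison that includes a bleomycin group the effects of batch and group cannot be told apart. A total of 324 barcode sequences occurred in more than 1 library, as the barcode set of the assay allows. With 3 mice per group, all p-values below measure the spread between single libraries of different mice.

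The bases upstream of 3 chains are shown because these genes differed in breadth of expression and in how the gene model was drawn: Lama5 was spread over epithelium and endothelium, Lama2 was nearly absent outside mesenchyme, and Lamb3 was counted over a model that begins far upstream of its RefSeq start. Each run holds the 250 bases before a RefSeq transcript start (RefSeq, GRCm38.p6), written 5′ to 3′ on the strand of the gene, and capitals mark the GC box letters GGGCGG or CCGCCC.
Lama5, chr2:180225860-180226109, minus strand: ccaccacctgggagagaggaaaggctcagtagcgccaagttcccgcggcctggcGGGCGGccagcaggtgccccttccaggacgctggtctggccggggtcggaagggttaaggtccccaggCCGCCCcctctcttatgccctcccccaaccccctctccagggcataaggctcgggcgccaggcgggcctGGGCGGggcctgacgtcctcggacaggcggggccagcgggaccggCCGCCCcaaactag
Lama2, chr10:27616943-27617192, minus strand: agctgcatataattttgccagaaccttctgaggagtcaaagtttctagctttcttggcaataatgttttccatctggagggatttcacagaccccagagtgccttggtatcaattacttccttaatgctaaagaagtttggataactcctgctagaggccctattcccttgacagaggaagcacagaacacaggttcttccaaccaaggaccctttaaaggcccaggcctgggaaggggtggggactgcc
Lamb3, chr1:193301744-193301993, plus strand: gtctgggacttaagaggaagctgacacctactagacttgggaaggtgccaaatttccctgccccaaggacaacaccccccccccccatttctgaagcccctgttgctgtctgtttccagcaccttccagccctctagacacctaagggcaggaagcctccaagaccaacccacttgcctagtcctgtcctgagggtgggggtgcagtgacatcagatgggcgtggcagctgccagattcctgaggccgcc
The Lama5 window held 19 CpG and 4 GC boxes, the Lama2 window 0 of each, and the Lamb3 window 2 CpG and 0 GC boxes. The Lamb1 and Lamb2 windows, which are not printed, held 14 and 3 CpG and 2 and 0 GC boxes. Lamb1 was mesenchymal as well, as given below. The Lama2 window also lies within its counted gene model, which reaches to position 27619758. Among all 32851 such windows the median was 6 CpG, and 32.7% held a GC box in either orientation. These counts describe letters only.

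Levels are given as CPM, the UMIs of a gene per 1000000 UMIs of the same class in the same library, averaged over the libraries with at least 20 nuclei of that class, and they compare classes for 1 gene, not genes with each other. The chains fell into a mesenchymal, an epithelial and a broad pattern. Lama2, Lamb1 and Lamc1 were highest in fibroblast-like nuclei, Lama3 in alveolar type I-like nuclei, and Lama4 in lymphatic endothelial-like and mural nuclei. Lama5 had no single leading class.

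**Figure D1:**
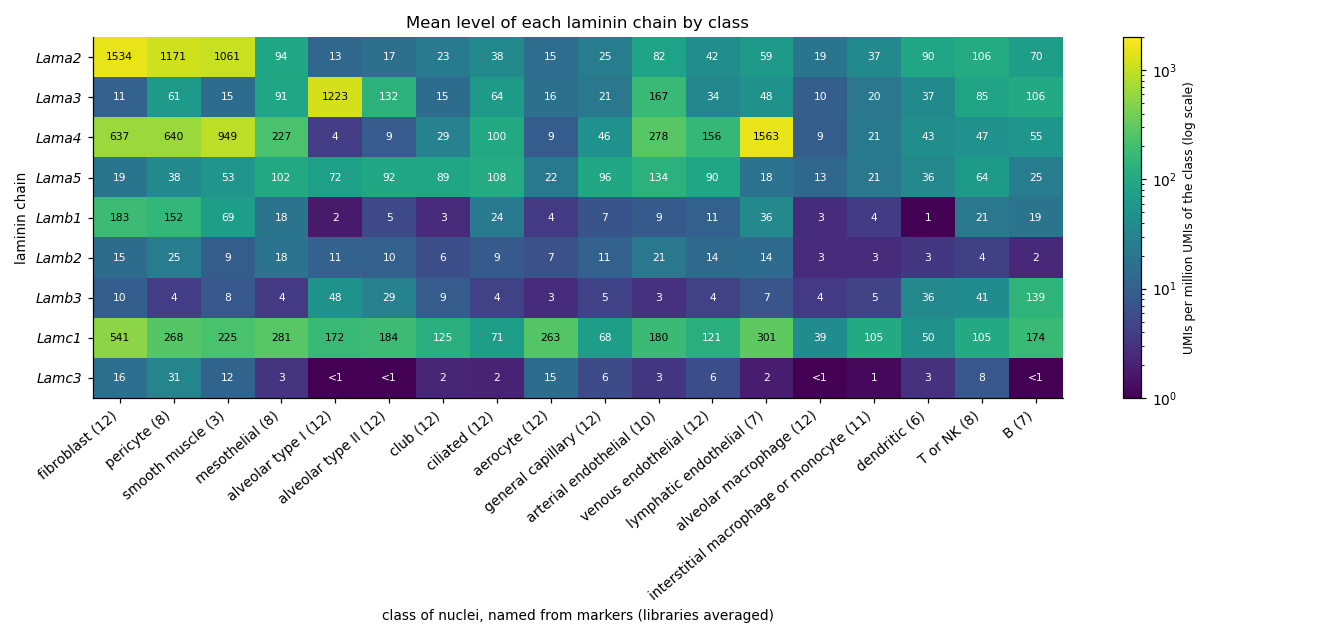
Mean CPM of each laminin chain (rows) in each of the 18 named classes of nuclei (columns, with the number of libraries averaged in brackets); colour is on a log scale and each cell prints the mean. Lama2 is above 1000 only in fibroblast, pericyte and smooth muscle-like nuclei, Lama3 stands at 1223 in alveolar type I-like nuclei and at 167 or less elsewhere, and Lama4 is highest at 1563 in lymphatic endothelial-like nuclei.

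Among the alpha chains, Lama2 (ENSMUSG00000019899, chr10:26980036-27619758), the alpha chain of muscle and mesenchymal laminins, stood at 1534 ± 189 CPM in fibroblast-like nuclei (SD, n = 12 libraries). It was 1171 ± 329 in pericyte-like nuclei (n = 8) and 1061 ± 329 in smooth muscle-like nuclei (n = 3), and fibroblast-like nuclei exceeded pericyte-like nuclei in 7 of 8 libraries. The next class, T or NK-like nuclei, had 106 ± 110, a level that includes libraries at 0. Fibroblast-like nuclei contributed 88.2% ± 6.89 of all Lama2 UMIs per library.

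Lama3 (ENSMUSG00000024421, chromosome 18), the alpha chain of epithelial anchoring laminins, was at 1223 ± 375 CPM in alveolar type I-like nuclei (n = 12), from 476 to 1681 across libraries. These nuclei exceeded the next class, arterial endothelial-like nuclei at 167 ± 107, in all 10 libraries that held both. Alveolar type II-like nuclei had 132 ± 43.1. Lymphocyte-like nuclei, which are not known to make this chain, still showed 106 ± 112 (B) and 85.2 ± 88.3 (T or NK), and those means include libraries at 0. Alveolar type II exceeded B-like nuclei in 6 of 7 libraries, but how much of its Lama3 was RNA from other nuclei was not tested. Alveolar type I-like nuclei held 72.4% ± 22.7 of Lama3 UMIs and unnamed nuclei 19.7% ± 20.7. The lowest alveolar type I share, 13.995%, was that of PBS_Vehicle replicate 2, where only 67 nuclei took that name. An unnamed cluster of 143 nuclei, whose best marker list was alveolar type I, came 92.31% from that library.

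Part of the unnamed Lama3 lay in 1 cluster of 1679 nuclei, led by Il1rapl2, Tnip3 and Areg and sharing markers of alveolar type I and transitional alveolar epithelium, which was left unnamed. Its Lama3 UMIs were uneven, with 2724 from Bleo_Vehicle replicate 3 and 102 from PBS_Vehicle replicate 2. Lama3 in this cluster was 927 ± 348 CPM over 12 libraries, with Lama5 at 119 ± 62.2, Lamb3 at 56.6 ± 20.8 and Lamc1 at 216 ± 29.4. Lama2, Lama4, Lamb1 and Lamc3 were at 35.5 or less there, which is the chain profile of the alveolar type I-like nuclei.

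Lama4 (ENSMUSG00000019846, chr10:38965515-39110188), the alpha chain of vascular and mesenchymal laminins, had its highest mean in lymphatic endothelial-like nuclei, 1563 ± 711 CPM (n = 7), with a range of 565 to 2372. Smooth muscle-like nuclei had 949 ± 289 (n = 3), pericyte-like nuclei 640 ± 240 (n = 8) and fibroblast-like nuclei 637 ± 149 (n = 12). Lymphatic endothelial exceeded smooth muscle in 2 of 3 libraries and pericyte exceeded fibroblast in 4 of 8, so these neighbours were not separated, while smooth muscle exceeded pericyte in 3 of 3. Blood endothelium was lower and uneven, at 278 ± 177 in arterial, 156 ± 58.0 in venous, 46.1 in general capillary and 9.14 in aerocyte-like nuclei. Fibroblast-like nuclei, which were far more numerous, supplied 75.02% ± 10.1 of Lama4 UMIs and lymphatic endothelial-like nuclei 3.83% ± 2.69.

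Lama5 (ENSMUSG00000015647, chr2:180176373-180225859) is the alpha chain of most adult epithelial and endothelial basement membranes. Its class means ran from 134 ± 38.2 CPM in arterial endothelial through 108 ± 33.1 in ciliated, 102 ± 45.9 in mesothelial, 96.5 ± 51.9 in general capillary and 92.2 ± 53.1 in alveolar type II to 72.2 in alveolar type I-like nuclei. Arterial endothelial exceeded ciliated in 8 of 10 libraries, but ciliated exceeded mesothelial in 4 of 8 and general capillary exceeded alveolar type II in 7 of 12. The capillary classes differed: aerocyte-like nuclei had 21.9 against 96.5 in general capillary-like nuclei. T or NK-like nuclei, which are not known to make this chain, had 63.5. They stood at 326, 87.7 and 37.6 in the Bleo_Vehicle libraries.

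Among the beta chains, Lamb1 (ENSMUSG00000002900, chr12:31265234-31329644), the common beta chain, kept the mesenchymal order of Lama2, with 183 ± 36.7 CPM in fibroblast-like nuclei (n = 12), 152 ± 61.6 in pericyte-like nuclei (n = 8) and 69.3 ± 32.3 in smooth muscle-like nuclei (n = 3). Fibroblast-like nuclei supplied 86.6% ± 9.06 of its UMIs, and alveolar type I-like nuclei stood at 1.75. Lamb2 (ENSMUSG00000052911, chr9:108479736-108490530), the beta chain of vessel, kidney and synaptic basement membranes, was sparse, with 1863 UMIs in all nuclei and no class mean over 25.1 ± 8.22 (pericyte-like, n = 8). Its order among pericyte, arterial endothelial, mesothelial and fibroblast-like nuclei was within the spread of libraries.

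Lamb3 (ENSMUSG00000026639, chr1:193207699-193343878), the beta partner of alpha3, stood at 47.8 ± 13.96 CPM in alveolar type I-like nuclei (n = 12) and 29.4 ± 10.7 in alveolar type II-like nuclei. The highest mean was in B-like nuclei, 139 ± 70.7 (n = 7), above alveolar type I in 6 of 7 libraries, with T or NK-like nuclei at 40.8 ± 29.4. Lama3 and Lamb3 were not in 1 ratio across classes: there were 25.9 Lama3 UMIs per Lamb3 UMI in alveolar type I-like nuclei, 4.40 in alveolar type II-like nuclei and 1.06 in B-like nuclei. The annotated Lamb3 gene starts at position 193207699, upstream of the RefSeq window printed above, and it spans Hsd11b1 and G0s2 on the opposite strand and 4930570N18Rik on the same strand. Reads over introns are counted in nuclei, so which transcript the Lamb3 UMIs of B-like nuclei came from cannot be told from gene totals, and the Lamb3 values are uncertain for that reason. Of the UMIs themselves, 144 came from 500 B-like nuclei. PBS_Vehicle replicate 1, PBS_NVP-BHG712 replicate 1 and Bleo_Vehicle replicate 3 gave 35, 47 and 50 of them. PBS_Vehicle replicate 2, PBS_NVP-BHG712 replicate 2 and Bleo_Vehicle replicate 2 gave 2 each. Bleo_NVP-BHG712 replicate 2, the highest of the averaged libraries at 242 CPM, gave 4. The B-like mean and the 6 of 7 thus rest partly on few UMIs.

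Of the gamma chains, Lamc1 (ENSMUSG00000026478, chr1:153218922-153332786), the gamma chain of nearly all laminins, was found in every class, from 39.4 CPM in alveolar macrophage-like nuclei to 541 ± 105 in fibroblast-like nuclei (n = 12). Aerocyte-like nuclei held 263 ± 52.0 of it, against 68.0 ± 34.0 in general capillary-like nuclei. Lymphatic endothelial (301 ± 63.6), mesothelial (281 ± 88.7) and pericyte-like nuclei (268 ± 97.1) were not separable. Lamc3 (ENSMUSG00000026840, chr2:31887291-31946539), with 1314 UMIs in all, was highest in pericyte-like nuclei, 31.3 ± 20.8 (n = 8), above fibroblast-like nuclei at 16.1 ± 8.56 in 7 of 8 libraries. Of these 8 pericyte libraries, PBS_Vehicle replicate 2, PBS_NVP-BHG712 replicate 2 and Bleo_Vehicle replicate 1 had 1 Lamc3 UMI each. Bleo_NVP-BHG712 replicate 2 had 0 and the others 9 to 33, so the order rests partly on single UMIs. Aerocyte-like nuclei had 14.6 ± 12.5 of Lamc3, while alveolar type I-like nuclei had 0.527.

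Within the fibroblast-like nuclei, a subcluster with adventitial markers such as Pi16 and Scara5 (1151 nuclei) held 2829 ± 684 CPM of Lama2 (n = 12) against 1193 to 1692 in the 3 largest unnamed subclusters. A subcluster with markers of fibrotic fibroblasts, led by Hmga2, Inhba and Has2 (466 nuclei), had 1378 ± 240 of Lama2 and 425 ± 232 of Lama4 (n = 7), the latter against 584 to 735 in the 3 largest. The 7 libraries include all 3 of Bleo_Vehicle and none of Bleo_NVP-BHG712, whose libraries held 13, 14 and 16 such nuclei, while the larger subclusters were averaged over 11 or 12 libraries, so the mixes of groups differ. Its Lamc1 was 630 ± 163. These subclusters were cut from the same nuclei, so their differences are descriptions. The 3 smallest subclusters, of 184, 137 and 92 nuclei, carried 9 or 10 markers of another class each and are not described, and the largest, of 2836 nuclei, also had 8 alveolar type II markers raised.

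Across the 18 classes, the genes whose log2 mean levels ran closest to each chain were Ism1 and Ednra for Lama2 (Pearson's r = 0.98 for both), Col4a4 (0.85) and Scd2 (0.83) for Lama3, Fbn1 (0.94) and Cyp7b1 (0.89) for Lama4, and Sntb1 (0.88) and Cadps2 (0.83) for Lama5. For the beta chains they were Wasf3 (0.93) and Vstm4 (0.92) for Lamb1, Pcdhga12 (0.88) and Ryk (0.87) for Lamb2, and Arhgef18 and B3gnt5 (0.81 each) for Lamb3. For the gamma chains they were Tnxb (0.83) and Trpc1 (0.80) for Lamc1, and Runx1t1 (0.91) and Mapt (0.88) for Lamc3. Col4a4, which encodes a chain of the type IV collagen network, and Fbn1, which encodes fibrillin-1, are themselves matrix genes. Among pairs of laminin chains, Lama2 with Lamb1 (r = 0.85), Lama4 with Lamb1 (0.82) and Lama2 with Lama4 (0.78) ran closest, and Lama3 ran with Lamb3 at 0.47. These are correlations over 18 classes that share libraries and depth, out of 12122 genes compared, and are given as descriptions.

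The first comparison between groups asked what bleomycin changed, Bleo_Vehicle against PBS_Vehicle, with UMIs summed over all nuclei of a library. Here Lama3 fell and no other chain passed the test. The 3 PBS_Vehicle libraries had 391, 312 and 490 CPM of Lama3 (scaled to TMM library sizes, as all values by library below), and the 3 Bleo_Vehicle libraries 184, 202 and 226. All Bleo_Vehicle libraries lay under all PBS_Vehicle libraries, and the fitted log2 change was -0.96 with an SE of 0.22 (adjusted p = 0.0454 by edgeR). This made 1 of 9 chains called, against 2.44% of the 14442 genes tested, while 20.3% of genes had no overlap between these groups and 32.9% had none in the second comparison below. In a sum over the lung, fewer cells of a type and less RNA per cell cannot be told apart. The alveolar type I-like share of nuclei was 10.2% ± 2.00 in Bleo_Vehicle and 9.74% ± 6.18 in PBS_Vehicle (n = 3 each). The PBS_Vehicle share depends on the naming of clusters. An unnamed cluster of 143 nuclei, whose best marker list was alveolar type I, came 92.31% from PBS_Vehicle replicate 2 and is left out of it. The Lama3 call sat near the threshold: it was lost when any of 9 libraries was left out (adjusted p 0.0539 to 0.179), namely each PBS_Vehicle library, PBS_NVP-BHG712 replicates 1 and 2, Bleo_Vehicle replicates 1 and 2 and Bleo_NVP-BHG712 replicates 1 and 3. When the nuclei were limited to those with 500 or more UMIs and no more than 1% mitochondrial reads, the change was -0.68 (adjusted p = 0.148, in a range of 0.0026 to 0.148 over the other alternatives).

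Lama4 moved by a like amount without passing. Its libraries had 215, 270 and 303 CPM in PBS_Vehicle and 82.6, 149 and 178 in Bleo_Vehicle, without overlap, for a log2 change of -0.94 ± 0.23 (edgeR adjusted p = 0.0557). DESeq2 gave an adjusted p of 0.00573 for it. Lama2 had 421, 518 and 568 CPM in PBS_Vehicle and 279, 396 and 408 in Bleo_Vehicle (log2 change -0.47 ± 0.17, adjusted p = 0.173). Lama5 showed how 1 library can carry a mean: Bleo_Vehicle had 155, 68.7 and 44.6 CPM against 36.4, 50.9 and 45.4 in PBS_Vehicle, a log2 change of 1.00 ± 0.37 (adjusted p = 0.179) set by replicate 1, and without Bleo_Vehicle replicate 3 its adjusted p was 0.0304. Lamb1, Lamb2, Lamb3, Lamc1 and Lamc3 had log2 changes from -0.34 to 0.64 (adjusted p 0.19 to 0.749).

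The second comparison asked what the inhibitor changed in injured lungs, Bleo_NVP-BHG712 against Bleo_Vehicle, and it shares the Bleo_Vehicle libraries with the first, so a low or high Bleo_Vehicle library enters both. Lama3 and Lama4 rose, 2 of 9 chains called against 5.51% of the 14442 genes. The Bleo_NVP-BHG712 libraries had 517, 309 and 516 CPM of Lama3, all above the Bleo_Vehicle libraries, with a log2 change of 1.13 ± 0.22 (edgeR adjusted p = 0.0172). For Lama4 they had 259, 262 and 244 CPM, tightly grouped and above 82.6, 149 and 178, with a log2 change of 0.89 ± 0.23 (adjusted p = 0.0458). The Lama3 call was lost without Bleo_Vehicle replicate 2, Bleo_NVP-BHG712 replicate 1 or Bleo_NVP-BHG712 replicate 3 (adjusted p 0.0526 to 0.0858) and with the stricter nuclei (0.85, adjusted p = 0.065, the highest over the other alternatives, from 0.000129). The Lama4 call was lost in 10 of the 12 fits that left out a library (adjusted p 0.0513 to 0.133) and held only without PBS_Vehicle replicate 1 or Bleo_Vehicle replicate 3. The remaining 7 chains had log2 changes from -0.98 (Lamc3) to 0.49 (Lama2), with adjusted p from 0.109 to 0.437.

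**Figure D2:**
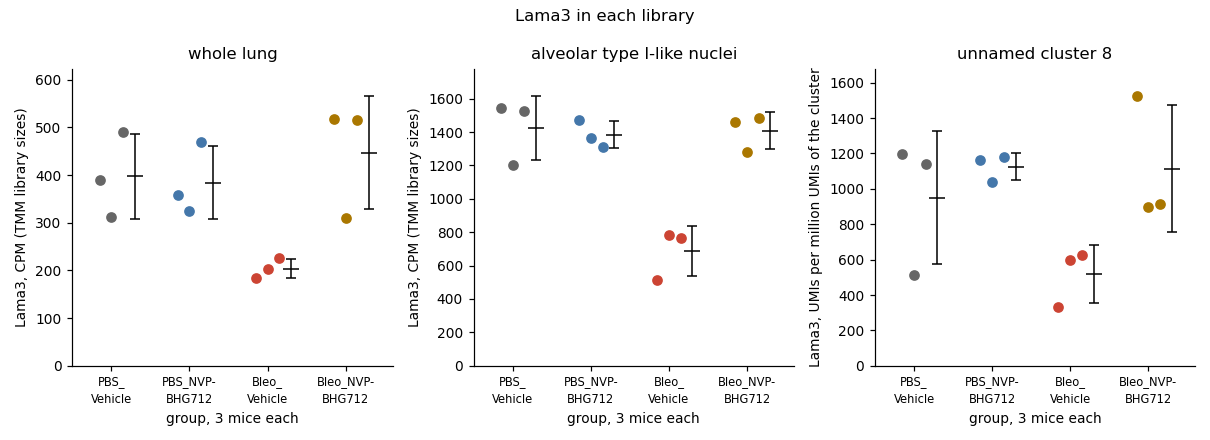
Lama3 level of each library (dots, 3 mice per group; black bars are mean ± SD) over the whole lung, in alveolar type I-like nuclei and in unnamed cluster 8; the y axes start at 0 and give CPM, in the right panel without TMM scaling. The 3 Bleo_Vehicle libraries lie at 184 to 226 in the whole lung and at 512 to 781 in alveolar type I-like nuclei, below every library of the other 3 groups, while in cluster 8 PBS_Vehicle replicate 2 overlaps them at 515.

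In alveolar type I-like nuclei, which cover most of the alveolar surface and sit on the shared basement membrane with capillaries, the Lama3 difference was present within the class. The libraries had 1546, 1202 and 1527 CPM in PBS_Vehicle, 1471, 1367 and 1313 in PBS_NVP-BHG712, 512, 781 and 765 in Bleo_Vehicle, and 1463, 1279 and 1485 in Bleo_NVP-BHG712. Bleo_Vehicle alone was low, at about the same distance from each other group, and no library of it reached the lowest of the others. Lama3 fell by 1.06 on the log2 scale in Bleo_Vehicle against PBS_Vehicle (SE 0.18, edgeR adjusted p = 0.0102), 1 of 6 chains tested against 1.04% of 8900 genes. It rose by 1.04 in Bleo_NVP-BHG712 against Bleo_Vehicle (SE 0.18, adjusted p = 0.00797), again 1 of 6 against 2.82%. The first call was lost without PBS_Vehicle replicate 1 (adjusted p = 0.0717) or PBS_Vehicle replicate 3 (0.052) and with only the 2 groups in the fit (0.131, the highest over the other alternatives, from 5.89e-06). The second was lost without Bleo_NVP-BHG712 replicate 3 (0.0628) and kept under all 10 alternatives that kept every library (1.01e-05 to 0.034), including the stricter nuclei and the fit with a gene length offset.

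Marker sums moved with this result. The 10 alveolar type I markers summed to 10905 CPM in the alveolar type I-like nuclei of Bleo_Vehicle (7639 to 12965) against 14925 in PBS_Vehicle (13638 to 17070), and the 10 alveolar type II markers to 560 (172 to 859) against 187 (148 to 250). Their part in the Lama3 difference was not tested. The class was a single cluster of 4919 nuclei, 67 to 1190 per library, and its mean Lama3 was 686 CPM in Bleo_Vehicle against 1425 in PBS_Vehicle.

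Lamb3 and Lamc1 were not called with Lama3 in these nuclei. Lamb3 had 44.5, 34.9 and 42.1 CPM in PBS_Vehicle and 92.8, 50.4 and 50.7 in Bleo_Vehicle (log2 change 0.57 ± 0.26, adjusted p = 0.352). Lamc1 had 149, 159 and 184 against 252, 187 and 210 (0.39 ± 0.16, adjusted p = 0.301). Both lay above PBS_Vehicle without overlap, as 15.8% of all genes did in either direction, and neither passed the test. Lama5 (0.81, adjusted p = 0.472) was again set by Bleo_Vehicle replicate 1, at 203 CPM against 69.2 and 53.4. Lamb2, sparse at 4.3 to 18.6 CPM, and Lama2, at 2.5 to 38.8 CPM, were not called.

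The unnamed cluster with alveolar type I and transitional markers also had its lowest Lama3 mean in Bleo_Vehicle, in values without a test. Lama3 stood at 330, 597 and 627 CPM in Bleo_Vehicle, 1195, 515 and 1142 in PBS_Vehicle, 1160, 1038 and 1181 in PBS_NVP-BHG712, and 1527, 899 and 912 in Bleo_NVP-BHG712. PBS_Vehicle replicate 2 lay within the Bleo_Vehicle range. This cluster made up 5.87% ± 1.19 of nuclei in Bleo_Vehicle, against 3.77% ± 3.68, 1.76% and 3.05% in PBS_Vehicle, PBS_NVP-BHG712 and Bleo_NVP-BHG712.

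In fibroblast-like nuclei, the main source of Lama2, Lamb1, Lamc1 and Lama4 RNA, no chain passed in either comparison: edgeR called 0 of 9 in Bleo_Vehicle against PBS_Vehicle, where it called 5.19% of 10413 genes, and 0 of 9 in Bleo_NVP-BHG712 against Bleo_Vehicle, where it called 7.64%. At an unadjusted p under 0.05 there were 3 and 4 chains, beside 1956 and 2384 of the 10413 genes, and DESeq2 called 1 (Lama4) and 2 (Lama4 and Lamc1), beside 792 and 1028 genes. Lama4 was at 681, 746 and 761 CPM in PBS_Vehicle, 256, 408 and 609 in Bleo_Vehicle and 746, 727 and 687 in Bleo_NVP-BHG712. The Bleo_Vehicle libraries were all lower and widely spread, which gave log2 changes of -0.77 ± 0.23 (adjusted p = 0.0738) and 0.75 ± 0.23 (adjusted p = 0.0655). Without Bleo_Vehicle replicate 3, the library of batch 7, these were -1.14 (adjusted p = 0.00395) and 1.13 (0.00399), and the interaction of Lama4 was 1.20 (0.0305).

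**Figure D3:**
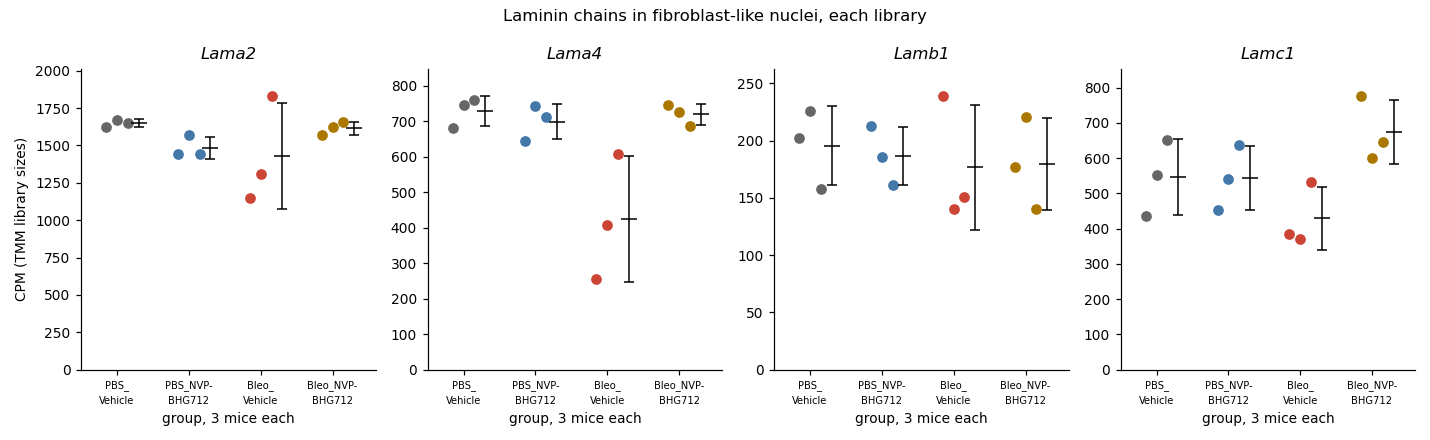
Level of Lama2, Lama4, Lamb1 and Lamc1 in the fibroblast-like nuclei of each library (dots, 3 mice per group; black bars are mean ± SD; CPM on TMM library sizes, axes from 0). Lama4 is lower in Bleo_Vehicle, at 256 to 609, than in any other library, whose lowest is 645, while the groups overlap for Lama2 and Lamb1.

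Lamc1 had 436, 553 and 652 CPM in PBS_Vehicle, 384, 370 and 533 in Bleo_Vehicle and 776, 599 and 647 in Bleo_NVP-BHG712, so the last group lay wholly above the second (log2 change 0.65 ± 0.21, adjusted p = 0.0717, and 0.86 with 0.0221 without Bleo_Vehicle replicate 3). Lama2 in the same nuclei had 1625, 1674 and 1650 CPM in PBS_Vehicle, 1149, 1312 and 1831 in Bleo_Vehicle and 1570, 1623 and 1655 in Bleo_NVP-BHG712. Bleo_Vehicle thus spread around the narrow PBS_Vehicle values, with a log2 change of -0.20 ± 0.19 (adjusted p = 0.633). Lamb1, at 202, 226 and 158 in PBS_Vehicle and 239, 140 and 150 in Bleo_Vehicle, overlapped too (-0.17 ± 0.22, adjusted p = 0.754). Lama4 of the adventitial subcluster had the same order by library in Bleo_Vehicle, 213, 335 and 645 CPM, against 632 to 824 in PBS_Vehicle.

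The epithelial chains were mostly at low levels in fibroblast-like nuclei. None was called in the edgeR fit of all 12 libraries with the filter on low counts and no replicate block. Lama3 stood at 6.4, 5.5 and 14.1 CPM in PBS_Vehicle and 14.4, 19.3 and 18.5 in Bleo_Vehicle (log2 change 1.11 ± 0.42, adjusted p = 0.151). Lama5 had 6.2, 7.9 and 14.1 against 111, 19.9 and 8.5 (2.16 ± 0.87, adjusted p = 0.202, and 2.75 with 0.0381 without Bleo_Vehicle replicate 3), and Lamb3 had a log2 change of 0.74 ± 0.40 in the first comparison (adjusted p = 0.355) and -1.35 ± 0.45 in the second (adjusted p = 0.0818). Epithelial markers moved with them: in these nuclei the 10 alveolar type II markers summed to 967 CPM in Bleo_Vehicle (319 to 1298) against 145 in PBS_Vehicle (111 to 213), and the 10 alveolar type I markers to 346 (223 to 420) against 115 (87.0 to 160). Their part was not tested. The 10 fibroblast markers themselves summed to 6939 against 9237.

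**Figure D4:**
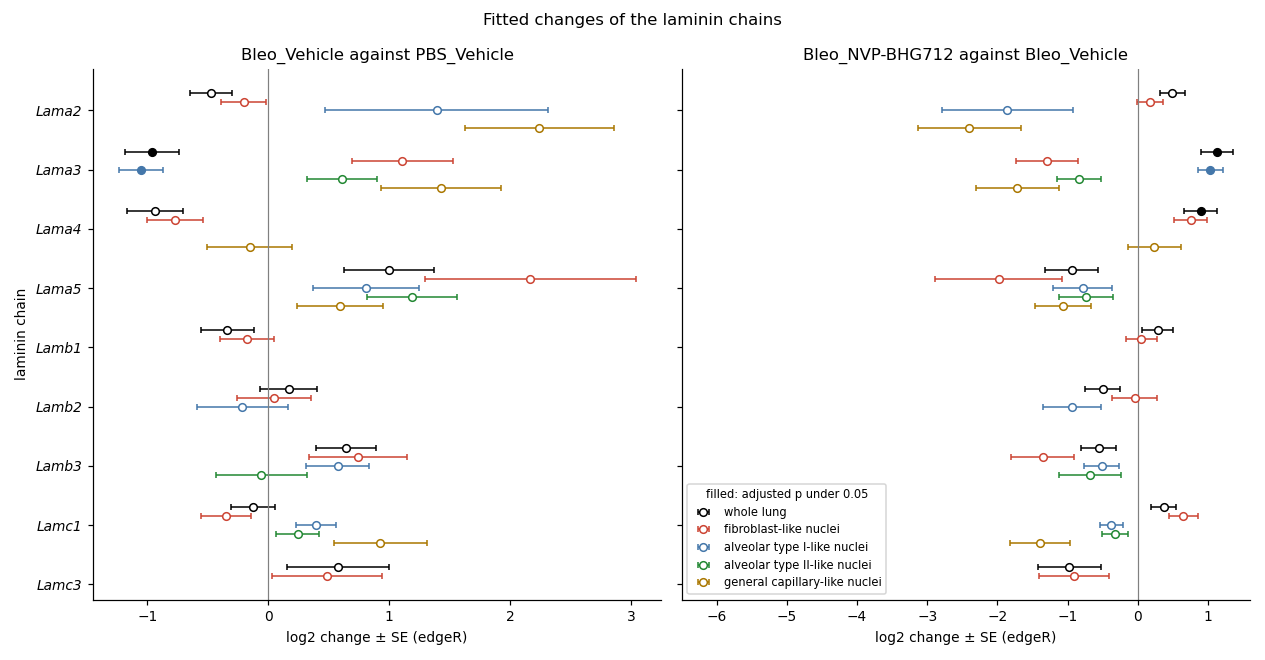
Fitted log2 change (x axis, ± SE) of each laminin chain (rows) in the whole lung and in 4 classes of nuclei, for Bleo_Vehicle against PBS_Vehicle (left) and Bleo_NVP-BHG712 against Bleo_Vehicle (right); filled points passed edgeR at an adjusted p under 0.05. Lama3 is filled in the whole lung and in alveolar type I-like nuclei in both panels and Lama4 in the whole lung in the right one; both comparisons share the Bleo_Vehicle libraries.

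In alveolar type II-like nuclei, the surfactant-making cells, edgeR called 0 of the 4 chains tested in either comparison, against 5.0% and 5.02% of 5799 genes. In each, 1 chain had an unadjusted p under 0.05, beside 1003 and 1115 genes, and DESeq2 called 1 chain in the first and 0 in the second, beside 312 and 344 genes. Lama5 came nearest, with 59.9, 67.0 and 59.9 CPM in PBS_Vehicle and 289, 118 and 84.0 in Bleo_Vehicle (log2 change 1.19 ± 0.37, adjusted p = 0.0833). T or NK-like nuclei, not known to make Lama5, had 326, 87.7 and 37.6 in Bleo_Vehicle without TMM scaling, from 13, 13 and 16 UMIs. They had 5.97 and 0 in PBS_Vehicle replicates 1 and 2. How much of the alveolar type II Lama5 was RNA from other nuclei was not tested. Without Bleo_Vehicle replicate 3 the Lama5 change in alveolar type II-like nuclei was 1.57 (adjusted p = 0.00244), and -1.11 in the second comparison (adjusted p = 0.0331). Lama3 in these nuclei ran the other way from alveolar type I-like nuclei, with 118, 121 and 155 CPM in PBS_Vehicle and 200, 236 and 160 in Bleo_Vehicle (0.61 ± 0.29, adjusted p = 0.293), a difference between classes that was not tested. Without Bleo_NVP-BHG712 replicate 3, Lama3 was called in the second comparison (-1.40, adjusted p = 0.0245).

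In general capillary-like nuclei, the endothelium of most alveolar capillaries, edgeR called 0 of 5 chains against 4.09% of 6238 genes in the first comparison and 0 of 5 against 4.68% in the second. At an unadjusted p under 0.05 there were 3 and 4 chains, beside 979 and 1158 of the 6238 genes, and DESeq2 called 1 and 2, beside 300 and 354 genes. Lama2 had 12.6, 21.4 and 4.3 CPM in PBS_Vehicle and 32.0, 130 and 27.0 in Bleo_Vehicle (log2 change 2.24 ± 0.62, adjusted p = 0.0529), then 6.1, 6.5 and 25.5 in Bleo_NVP-BHG712 (-2.40 ± 0.73, adjusted p = 0.0725). The highest value is that of Bleo_Vehicle replicate 2. In T or NK-like nuclei Lama2 was higher in the same libraries, at 126, 297 and 240 CPM in Bleo_Vehicle without TMM scaling. It was 35.8 and 0 there in PBS_Vehicle replicates 1 and 2, and 0 in Bleo_NVP-BHG712 replicate 2. How much of the capillary Lama2 was RNA from other nuclei was not tested. Capillary Lama2 passed the first comparison without PBS_NVP-BHG712 replicate 1 (2.22, adjusted p = 0.0453), without Bleo_NVP-BHG712 replicate 3 (2.19, adjusted p = 0.0452) or without Bleo_Vehicle replicate 3 (2.71, adjusted p = 0.00142). Without that last library Lama3 and Lama5 were also called in the first comparison, and Lama2, Lama3, Lama5 and Lamc1 in the second. The 9 markers of general capillaries summed to 5915 CPM in Bleo_Vehicle (4111 to 9357) against 9941 in PBS_Vehicle, and the alveolar type II markers to 2017 (593 to 2797) against 288 (190 to 429), so markers of another class were higher in the same libraries, and their part was not tested. The fibroblast markers summed to 1391 against 1943.

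Lamc1 was the 1 chain abundant enough to test in aerocyte-like nuclei, the thin gas-exchange capillaries. It had 193, 320 and 302 CPM in PBS_Vehicle, 295, 331 and 402 in Bleo_Vehicle and 242, 330 and 232 in Bleo_NVP-BHG712, all overlapping. The log2 changes of 0.41 ± 0.21 (adjusted p = 0.699) and -0.35 ± 0.22 (adjusted p = 0.556) left edgeR with 0 of 1 called, against 0.815% and 1.36% of 4785 genes. No unadjusted p was under 0.05 and DESeq2 called 0. Without Bleo_Vehicle replicate 3, Lama5 entered the test and was called in the second comparison.

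Lymphatic endothelial-like nuclei, the class with the most Lama4, were too few to fit. In the libraries with at least 20 of them, Lama4 was at 2216 and 1947 CPM in PBS_Vehicle, 2372 and 1725 in PBS_NVP-BHG712, and 690, 565 and 1427 in Bleo_Vehicle. The 3 Bleo_Vehicle values lay below the 4 PBS ones. Bleo_NVP-BHG712 libraries held 2, 15 and 7 such nuclei, and their values of 842, 2244 and 2112 rest on too few UMIs to place. Pericyte-like nuclei overlapped, with 301, 357 and 933 in Bleo_Vehicle and 651 and 573 in the PBS_Vehicle libraries with at least 20 nuclei.

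The inhibitor without injury, PBS_NVP-BHG712 against PBS_Vehicle, moved no chain past the test in any of the 6 fits. In the whole lung, edgeR called 0 of 9 chains and 0.0% of 14442 genes (43 genes at an unadjusted p under 0.05, 0 called by DESeq2), and the chains' log2 changes lay between -0.15 and 0.26. In fibroblast-like nuclei it called 0 of 9 and 0.0% of genes (48 genes at p under 0.05), in alveolar type I-like nuclei 0 of 6 and 0.0% (39 genes), in alveolar type II-like nuclei 0 of 4 and 0.0% (41 genes), in general capillary-like nuclei 0 of 5 and 0.0% (19 genes) and in aerocyte-like nuclei 0 of 1 and 0.0% (46 genes), with 0 called by DESeq2 in each. In all 6, 0 chains had an unadjusted p under 0.05. For Lama3 in alveolar type I-like nuclei the change was -0.05 ± 0.18. The labels give the PBS_Vehicle libraries runs 1, 2 and 2 and the PBS_NVP-BHG712 libraries runs 1, 2 and 3. When only the 6 PBS libraries were fitted and run was a blocking term, edgeR again called 0 chains in each of the 6 fits.

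Bleo_NVP-BHG712 against PBS_NVP-BHG712 likewise gave 0 called chains and 0.0% of genes in the whole lung, in fibroblast, alveolar type I, alveolar type II, general capillary and aerocyte-like nuclei, by edgeR and by DESeq2. Genes at an unadjusted p under 0.05 numbered 397, 329, 258, 177, 240 and 202 in that order. Lamb2 was the 1 chain under 0.05 in the whole lung (log2 change -0.60 ± 0.25, unadjusted p = 0.0315, adjusted p = 0.97) and in alveolar type I-like nuclei (-1.13 ± 0.40, unadjusted p = 0.0122), where it had 4.3, 7.3 and 5.7 CPM against 13.6, 10.0 and 14.8. Lama3 in alveolar type I-like nuclei differed by 0.03 ± 0.18.

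Whether the inhibitor's effect differed between injured and uninjured lungs was tested as an interaction. No chain passed: edgeR called 0 of 9 in the whole lung against 0.298% of genes, 0 of 9 in fibroblast-like nuclei against 0.547%, and 0 of 6 in alveolar type I-like nuclei against 0.0787%. At an unadjusted p under 0.05 there were 5, 4 and 2 chains, beside 2072 of 14442, 1507 of 10413 and 755 of 8900 genes. Of 351, 284 and 32 genes that DESeq2 called in these fits, the chains were Lama3 in the whole lung (adjusted p = 0.024) and in alveolar type I-like nuclei (0.0116), with 0 chains in fibroblast-like nuclei. For Lama3 the interaction was 1.18 ± 0.31 in the whole lung (edgeR adjusted p = 0.146, in a range of 0.024 to 0.356 over the alternatives) and 1.082 ± 0.25 in alveolar type I-like nuclei (adjusted p = 0.171, in a range of 0.0116 to 0.253). So Lama3 differed between the bleomycin groups and not detectably between the PBS groups, and the difference of those differences was called by DESeq2 but not by edgeR as fitted here.

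Gene length moved with the comparisons and with the chains at once. The annotated spans run from 10.8 kb for Lamb2 and 49.5 kb for Lama5 through 145 kb for Lama4 and 249.2 kb for Lama3 to 640 kb for Lama2. Across 14432 genes in the whole lung, Spearman's rho between span and log2 change was -0.11 in Bleo_Vehicle against PBS_Vehicle and 0.25 in Bleo_NVP-BHG712 against Bleo_Vehicle, a description over genes that share the same libraries. Genes of 200 kb or more had a median log2 change of 0.17 in the second comparison (quartiles -0.34 and 0.54) and genes under 5 kb one of -0.43. Lama3 at 1.13 lay above that upper quartile, and with a length trend removed from each library it was 0.96 (adjusted p = 0.0326) in the second comparison and -0.89 (adjusted p = 0.0575) in the first. In alveolar type I-like nuclei the same fit gave -1.11 (adjusted p = 0.0174) and 1.01 (adjusted p = 0.0175).

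**Figure D5:**
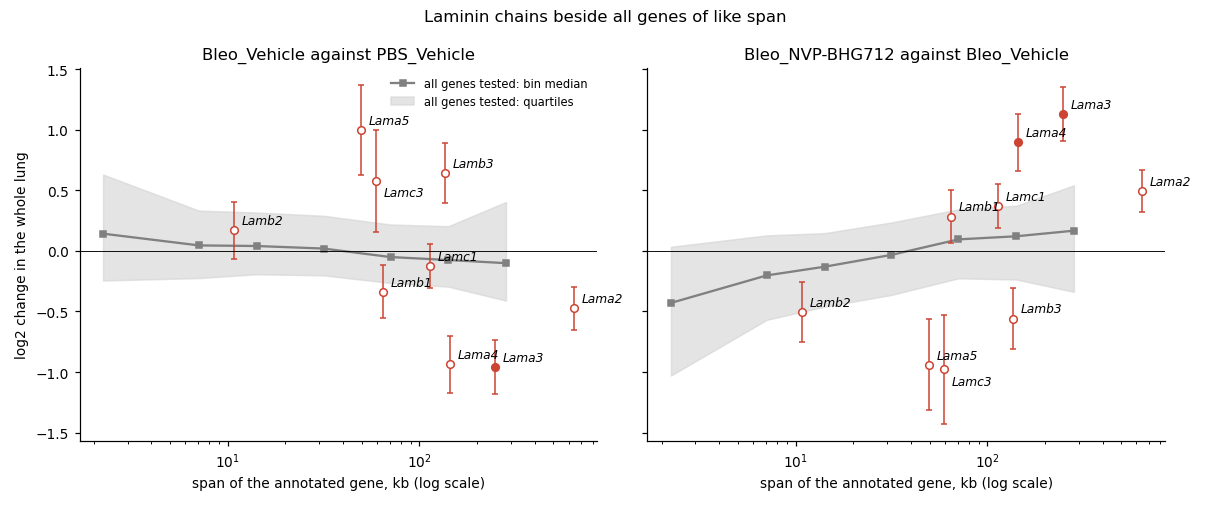
Log2 change of each laminin chain in the whole lung (red points ± SE, filled where edgeR called it) against the span of its gene in kb (log scale), beside the median (grey line) and quartiles (grey band) of all genes in 7 bins of span, for both bleomycin comparisons. Lama3 and Lama4 lie outside the band on both sides, below it on the left and above it on the right. Lamb3 lies on the other side. Its annotated span of 136 kb begins far upstream of its RefSeq start, so its length beside Lama4 is uncertain.

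The other genes of the laminin pathway, 45 found of 47 listed, were read in the same fits. In the whole lung, 0 rose and 1 fell in Bleo_Vehicle against PBS_Vehicle, and 2 rose and 4 fell in Bleo_NVP-BHG712 against Bleo_Vehicle. Over all 14442 genes 266 rose and 86 fell, then 283 rose and 513 fell. Npnt, the nephronectin gene, whose product is a basement membrane ligand of integrin alpha8 beta1, fell by 1.28 in log2 units (SE 0.27, adjusted p = 0.0319 by edgeR) and then rose by 1.49 (SE 0.27, adjusted p = 0.0124), the directions of Lama3. In alveolar type I-like nuclei it fell by 1.18 and rose by 1.19, and of the 29 pathway genes tested there the 1 other call was Col4a2, which fell in the second comparison (-1.15). Frem1, a basement membrane adhesion protein, rose by 1.40 in the whole lung in the second comparison, while Col4a1 (-1.02), Col4a2 (-0.91), Col15a1 (-1.505) and Itga7 (-1.03), an integrin chain that binds laminin, fell. Col15a1, Itga7, Itga6, Bcam and Sdc1, and the pathway genes named in alveolar and capillary nuclei, lie outside the naming rule and were chosen after their values were seen.

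In fibroblast-like nuclei, 6 of 38 pathway genes rose and 1 fell in the first comparison, and 2 rose and 7 fell in the second. Over all 10413 genes 416 rose and 124 fell, then 270 rose and 526 fell. The pathway genes that rose in the first comparison included the epithelial collagens Col4a3 (1.95 ± 0.36) and Col4a4 (1.64 ± 0.35) and the laminin receptor genes Itga6, Bcam and Sdc1, in the nuclei and libraries in which alveolar markers were also higher, as given above. Npnt fell there, with a log2 change of -1.504, and rose by 1.70, while in general capillary-like nuclei it rose by 1.80 and fell by 1.73 in the same comparisons. In alveolar type II-like nuclei, 6 of 24 rose and 1 fell, then 1 rose and 7 fell, beside 186 and 104, then 112 and 179, of all 5799 genes. Those that rose in the first comparison included Agrn, Ntn4, Col4a1 and Col4a4. Lama3 and Lamb3 were not called in these nuclei.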

How the data were processed

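Single-nucleus RNA was measured in 12 libraries of the 10x assay. The authors deposited UMI counts per gene and nucleus, made with Cell Ranger 7.2.0 per the file headers (7.0 in the submitters' processing notes, which also list Seurat 4.4.1) on mm10. Deposited libraries held 3556084 to 61947690 UMIs in 49163 barcodes. Nuclei with 200 to 6000 genes and at most 5% mitochondrial UMIs were kept, and 2708 called doublets (5.72% of those passing) were removed. Nuclei were clustered with scanpy 1.11.5 (Harmony across libraries, Leiden resolution 1), without the laminin pathway genes, and clusters were named from 29 marker lists. Gene spans came from GENCODE M21, where 31011 of 31053 identifiers matched.

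Counts were summed per library, over all nuclei and over each class with at least 20 nuclei in at least 2 libraries of every group, and tested with edgeR 4.0.16 (R 4.3.3) by the robust quasi-likelihood test after filterByExpr and TMM scaling, with 1 mean per group and all libraries in 1 fit. The test was two-sided, with Benjamini-Hochberg adjustment over all genes tested and calls at an adjusted p under 0.05. The study's own test over nuclei was not used because nuclei of 1 mouse are not replicates. The fit was tested on simulated data with known changes.

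The members and gene lists were chosen with earlier results of these data known. All 9 chains were named whatever their values, with the 2 genes most like each across classes and, from the pathway lists, up to 3 called genes per direction in the whole lung and in fibroblast-like nuclei, with at least 10 CPM and no overlap between groups. Alternatives were DESeq2 1.42.0, no filter on low counts, only the 2 groups compared, a replicate block, run as a blocking term among PBS libraries, RLE size factors in place of TMM, mitochondrial genes left out, doublets kept, stricter nuclei, no batch correction, each library left out and, chosen after seeing the data, a gene length offset and the interaction in alveolar type I-like nuclei.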

Additional observations from a re-analysis of the deposited data

How the results depend on the processing

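Of 3479 refitted log2 changes of single chains, 3384 kept their direction and their side of the threshold, 33 lost a call, 62 gained one and 0 reversed. Few of the 160 results refitted were calls to begin with. Most refits thus had no call to lose, and the 33 are not to be read as a share of 3479. With 3 mice per group and batch tied to group, the calls near the threshold are the weakest part, and the causes of the changes below were not tested. In the order Bleo_Vehicle against PBS_Vehicle, then Bleo_NVP-BHG712 against Bleo_Vehicle, 1 and 2 chains were called in the whole lung, 0 and 0 in fibroblast-like, 1 and 1 in alveolar type I-like, and 0 and 0 in alveolar type II, general capillary and aerocyte-like nuclei, beside 1 and 6 pathway genes in the whole lung and 7 and 9 in fibroblast-like nuclei.

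DESeq2 called 2 chains in the first whole-lung comparison and 1 in the interaction, with 7 and 10 pathway genes; 1 and 2 chains and 14 and 14 pathway genes in fibroblast-like nuclei; 1 in the interaction of alveolar type I-like nuclei; 1 in the first comparison of alveolar type II-like nuclei; and 1 and 2 in general capillary-like nuclei. With doublets kept there were 2 chains in the first whole-lung comparison, 1 and 1 in alveolar type II-like and 1 in the first of general capillary-like nuclei. With the gene length offset there were 2 pathway genes in the first whole-lung comparison and 1 and 2 chains in fibroblast-like nuclei. With no filter on low counts there were 2 pathway genes in the first and 1 chain in the second whole-lung comparison, 2 and 5 chains, 1 in the interaction and 16 and 17 pathway genes in fibroblast-like nuclei, 3 chains in the second comparison and 2 in the interaction of alveolar type I-like nuclei, 1 in the first of alveolar type II-like, 1 and 2 in general capillary-like and 1 and 1 in aerocyte-like nuclei. With only the 2 groups compared, 0 chains and 0 pathway genes were called in the first and 1 chain in the second whole-lung comparison, and 0 in the first of alveolar type I-like nuclei. With stricter nuclei, 0 and 0 chains and 0 pathway genes in the first comparison were called in the whole lung, and 1 and 2 pathway genes in fibroblast-like nuclei. Without batch correction, 4 and 4 pathway genes were called in fibroblast-like nuclei, which held 80.3% of Lama2 UMIs in place of 88.2%.

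Replicate numbers shared a run between the PBS groups for replicates 1 and 2 but not 3, and were not taken to pair the libraries. Deviations of same-numbered libraries correlated over 0.1 in 10 of 18 pairs in the whole lung (r from -0.157 to 0.787, median 0.141). In the other fits this held in 4 to 8 of 18. These correlations cannot decide whether the libraries are paired, because differently numbered pairs are not set beside them. With a replicate block, 3 chains were called in the first whole-lung comparison and 1 in the interaction, with 8 and 16 pathway genes; 1 and 3 chains and 13 and 15 pathway genes in fibroblast-like nuclei; and 1 and 1 chains in general capillary-like nuclei.

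Leaving out 1 library gave 0 to 3 chains in each whole-lung comparison, with 0 to 7 and 0 to 11 pathway genes; 0 to 2 chains in each comparison of fibroblast-like nuclei, 0 to 1 in their interaction, with 3 to 13 pathway genes in both; 0 to 1 in each of alveolar type I and alveolar type II-like nuclei; 0 to 3 and 0 to 4 in general capillary-like nuclei; and 0 to 1 in the second comparison of aerocyte-like nuclei. Most of the gains outside the whole lung came without Bleo_Vehicle replicate 3. Depth limits Lamb2 and Lamc3, with 1863 and 1314 UMIs in all nuclei.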
